A study of Homo sapiens with 10 samples.

Results

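The comparison described here sets the MeDIP peaks of HEK293T cells labelled K non-rep KO against those of HEK293T cells labelled EV. All peaks on chromosomes 1 to 22 and X of both lists were taken, 53396 in K non-rep KO and 87815 in EV. Together these are 141211 of the 284960 peaks in the 5 lists of the series. A peak was called shared where it overlapped a peak of the other list by at least 1 bp. HEK293T is an established human embryonic kidney cell line. The series profiled DNA methylation in 5 conditions labelled K non-rep KO, K rep KO, KD, WT and EV, each with 1 immunoprecipitated library and 1 input library. The design text ties the knockdown to KCNQ1OT1_K, but the labels spell out neither EV nor K, rep or non-rep, and give no clone, allele or guide. EV served as an alternative to WT as the condition that K non-rep KO is set against. No condition has a replicate, so no p-value is given and no difference can be weighed against the spread between cultures.

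In mammals DNA methylation is the addition of a methyl group to cytosine, mostly where a guanine follows (CpG). Methylated DNA immunoprecipitation (MeDIP) captures sonicated DNA with an antibody against 5-methylcytosine, so a peak marks a stretch with many methylated cytosines that stands above the background. Gene bodies and repeats are usually methylated, while most CpG-rich promoters are not. KCNQ1OT1 is a long non-coding RNA made from an intron of KCNQ1, antisense to it, on the paternal copy of an imprinted domain on chromosome 11, where it is known to silence neighbouring genes in cis.

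A few promoter windows show where the edges of strong peaks differed between the lists. They hold the strongest peaks, by the authors' −log10 q, among promoters of protein-coding genes with a peak in 1 list and none in the other. In all 6 the peak over the window also overlapped a peak of the other list that lay outside the window, so the peaks are shared and only the promoter itself was marked in 1 list alone. Each window runs from 250 bases before to 50 bases after a RefSeq gene start on GRCh38.p14, is written 5′ to 3′ on the strand of the gene, and has its CpG sites in capitals. The first 3 windows held a peak in K non-rep KO alone. KHDC1L lies on the minus strand at chr6:73225447-73225746 and belongs to a family of KH domain genes. TAF11L5, on the plus strand at chr5:17524985-17525284, is 1 of several near-identical copies, so its reads are uncertain. ENTHD1, which encodes an ENTH domain protein, lies on the minus strand at chr22:39893711-39894010.
KHDC1L: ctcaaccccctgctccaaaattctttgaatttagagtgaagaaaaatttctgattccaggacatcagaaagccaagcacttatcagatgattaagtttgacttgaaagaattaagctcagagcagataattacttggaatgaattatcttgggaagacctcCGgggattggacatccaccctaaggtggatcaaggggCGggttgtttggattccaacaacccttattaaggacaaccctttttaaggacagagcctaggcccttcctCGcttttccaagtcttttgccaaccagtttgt
TAF11L5: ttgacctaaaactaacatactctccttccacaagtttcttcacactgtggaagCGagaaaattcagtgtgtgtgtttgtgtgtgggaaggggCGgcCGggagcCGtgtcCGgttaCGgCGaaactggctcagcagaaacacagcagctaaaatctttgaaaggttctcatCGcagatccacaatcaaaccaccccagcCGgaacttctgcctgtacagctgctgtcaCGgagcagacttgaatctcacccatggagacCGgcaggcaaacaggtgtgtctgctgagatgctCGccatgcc
ENTHD1: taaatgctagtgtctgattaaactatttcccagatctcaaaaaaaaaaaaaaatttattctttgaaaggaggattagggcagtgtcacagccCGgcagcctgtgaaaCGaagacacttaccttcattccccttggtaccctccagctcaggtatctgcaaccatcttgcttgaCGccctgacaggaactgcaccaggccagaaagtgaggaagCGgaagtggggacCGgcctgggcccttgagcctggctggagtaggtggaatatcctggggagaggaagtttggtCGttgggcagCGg

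The KHDC1L window held 3 CpG sites, TAF11L5 12 and ENTHD1 7. The K non-rep KO peak at KHDC1L was 1215 bp wide with a fold enrichment of 9.90, and no other list had a peak in the window. Its EV partner, 456 bp wide, ended 384 bases short of the window. The peak at TAF11L5 was 861 bp wide with a fold enrichment of 4.78, and K rep KO and KD each had 1 in the window as well. Its EV partner lay 68 bases from the window. The peak at ENTHD1 was 581 bp wide with a fold enrichment of 7.51, again with none in the other lists. Its EV partner lay 196 bases from the window. The next 3 windows held a peak in EV and none in K non-rep KO. LOC124901638, on the minus strand at chr7:56826486-56826785, and LOC124902313, on the plus strand at chr9:137101647-137101946, are protein-coding loci without an assigned function. PPP1R27, on the minus strand at chr17:81835001-81835300, encodes a regulatory subunit of protein phosphatase 1.
LOC124901638: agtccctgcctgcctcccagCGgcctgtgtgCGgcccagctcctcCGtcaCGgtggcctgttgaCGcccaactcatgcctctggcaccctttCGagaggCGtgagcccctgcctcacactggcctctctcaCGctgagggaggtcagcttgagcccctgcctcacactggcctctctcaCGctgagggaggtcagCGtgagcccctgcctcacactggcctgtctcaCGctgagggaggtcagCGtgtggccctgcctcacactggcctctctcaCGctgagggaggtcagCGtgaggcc
LOC124902313: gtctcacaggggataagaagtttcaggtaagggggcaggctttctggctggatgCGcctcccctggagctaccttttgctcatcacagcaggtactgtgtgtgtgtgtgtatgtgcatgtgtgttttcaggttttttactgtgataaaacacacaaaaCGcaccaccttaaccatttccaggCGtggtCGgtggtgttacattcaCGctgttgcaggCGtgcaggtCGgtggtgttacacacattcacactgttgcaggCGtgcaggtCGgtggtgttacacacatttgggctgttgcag
PPP1R27: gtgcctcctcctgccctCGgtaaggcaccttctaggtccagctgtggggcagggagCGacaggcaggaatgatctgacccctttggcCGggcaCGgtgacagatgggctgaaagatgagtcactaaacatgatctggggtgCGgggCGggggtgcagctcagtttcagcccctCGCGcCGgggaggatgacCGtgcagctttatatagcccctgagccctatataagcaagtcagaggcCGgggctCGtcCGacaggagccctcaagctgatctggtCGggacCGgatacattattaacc

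These windows held 14, 9 and 15 CpG sites in the order printed. The EV peaks over them were wide. The one at LOC124901638 was 7031 bp with a fold enrichment of 14.5, and K rep KO, KD and WT also had 1 peak each in the window. The K non-rep KO peak it overlapped was 5026 bp wide and lay 87 bases from the window. The EV peak at PPP1R27 was 3840 bp wide with a fold enrichment of 11.6, and that at LOC124902313 was 2121 bp wide with a fold enrichment of 9.27. Their K non-rep KO partners lay 321 bases from the window at PPP1R27 and 58 bases from it at LOC124902313. K rep KO had 1 peak in both of these windows, while KD and WT had none. The sequence of the EV-only window at LOC124901638 repeats a short unit, and nothing in the sources used here says how reads that map to several places were handled.

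K non-rep KO had fewer peaks than EV across the genome. The ratio of peak numbers, K non-rep KO over EV, was 0.608 (exact binomial 95% interval 0.602 to 0.615), and the peaks covered 39.6 Mb in K non-rep KO against 64.0 Mb in EV, a ratio of 0.618. Peaks were of similar size, at median widths of 506 bp (K non-rep KO) and 522 bp (EV). The lists hold no read counts, but solving each peak's deposited fold and −log10 p for a whole-number summit pileup gave a median of 10 fragments in K non-rep KO and 12 in EV. The same solution put the depth of the K non-rep KO immunoprecipitated library at 0.751 of that of EV. The part of depth in the lower number of peaks was not tested. For comparison, the other lists held 59098 peaks in K rep KO, 53919 in KD and 30732 in WT, so EV had the most peaks of the 5 conditions. All intervals here cover counting error only, and since neighbouring peaks are not independent they are too narrow.

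A majority of the K non-rep KO peaks lay where EV also had one, but most EV peaks had no partner. Shared peaks numbered 31672 in K non-rep KO, 59.3% of that list (Wilson 95% interval 58.9% to 59.7%), and 31200 in EV, 35.5% of that list (35.2% to 35.8%). The remaining 21724 K non-rep KO peaks and 56615 EV peaks lay in 1 list alone. Nearly all shared peaks met 1 partner, since 831 K non-rep KO peaks and 1147 EV peaks overlapped 2. Shared peaks were wider than the others, with medians of 647 bp (shared) against 400 bp in K non-rep KO, and for EV 800 bp against 449 bp. Their authors' fold enrichment was also higher, at medians of 4.62 against 4.08 in K non-rep KO and 4.79 against 4.11 in EV.

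How often a peak was shared depended on its strength within its own list. In the weakest decile of the K non-rep KO list by −log10 q, 44.9% of peaks were shared, and in the strongest decile 97.5%. In EV the shares were 20.6% in the weakest decile and 85.4% in the strongest. Width gave the same ordering. Of K non-rep KO peaks of 400 bp or less 38.6% were shared, against 16.0% of EV peaks of that size. Above 5000 bp all 130 K non-rep KO peaks were shared and 99.5% of the 188 EV peaks. Strong and wide methylated stretches were mostly common to both lists, and peaks of 1 list alone were mostly short.

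**Figure D1:**
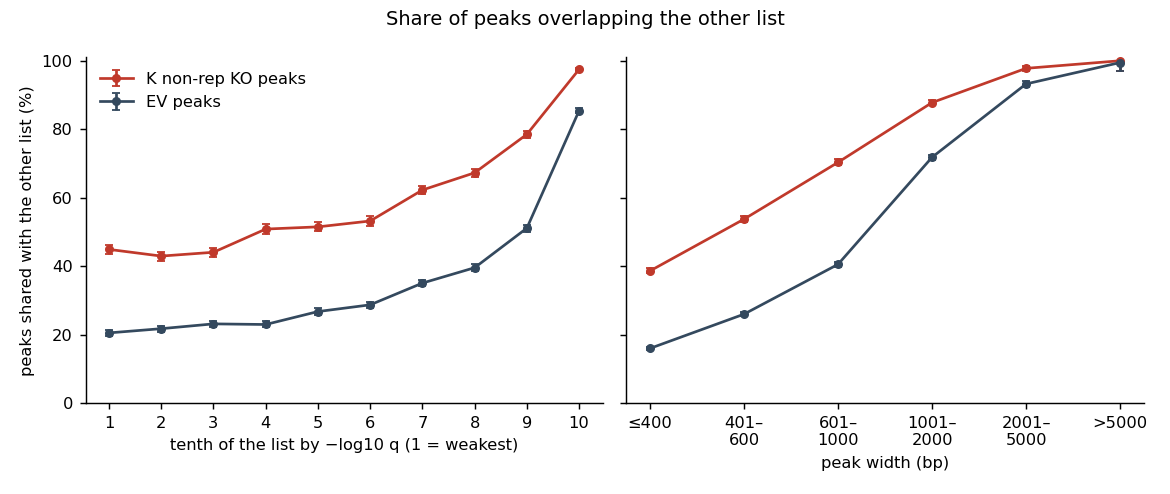
Share of peaks (y axis, percent) that overlap the other list, by decile of the list ordered by the authors' −log10 q (left) and by peak width in bp (right), for K non-rep KO peaks (red) and EV peaks (dark blue). Bars are Wilson 95% intervals. Shares were higher among strong and wide peaks in both lists, reaching 97.5% in K non-rep KO and 85.4% in EV in the strongest decile.

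The 3 lists outside this pair were then searched for each class of peak. Of shared K non-rep KO peaks 81.3% overlapped a peak in at least 1 of K rep KO, KD and WT, and 36.7% overlapped all 3. Among peaks found in K non-rep KO but not in EV, 39.0% had a partner in at least 1 other list. Among peaks found in EV but not in K non-rep KO the share was 39.5%. Both classes had the most partners in K rep KO, with 22.9% of K non-rep KO-only peaks and 23.9% of EV-only peaks. The KD list held partners of 19.1% of K non-rep KO-only peaks and 21.3% of EV-only peaks. The WT list held partners of 12.6% and 9.42% in the same order of classes. The same order of lists held over all peaks, so it is not particular to the unshared classes. K rep KO held partners of 48.8% of all K non-rep KO peaks and 39.4% of all EV peaks. WT held partners of 35.4% and 24.4% in that order, and KD lay between. This is also the order of list length. At least 1 of the 3 lists held a partner of 64.1% of all K non-rep KO peaks and 54.6% of all EV peaks. Only 631 K non-rep KO-only peaks (2.90%) and 1361 EV-only peaks (2.40%) lay in all 3 other lists. The 13241 K non-rep KO-only peaks and 34231 EV-only peaks with no partner anywhere made up 61.0% and 60.5% of their classes.

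Named examples show the range. The strongest shared peak within a protein-coding gene lay in PTPRN2, a receptor-type tyrosine phosphatase gene of secretory vesicles, at chr7:158146934-158149184 in K non-rep KO, with an authors' fold enrichment of 16.5. Others lay in ARHGEF18 and RNGTT, which encode a guanine nucleotide exchange factor and the mRNA capping enzyme, and in the olfactory receptor gene OR6J1 and the doublecortin domain gene DCDC2. All 5 of these had partners in K rep KO, KD and WT too. The strongest peak of K non-rep KO without an EV partner lay in RPS6KA2, a ribosomal S6 kinase gene (chr6:166783857-166784183, 327 bp, fold enrichment 20.9). It had a partner in K rep KO and none in KD or WT. The next 4 lay in NDUFAB1, STAU1, ILRUN and COL23A1, with fold enrichments of 9.27 to 11.4. The strongest EV peak without a K non-rep KO partner lay in PLD2, a phospholipase D gene (chr17:4817386-4817870, 485 bp, fold enrichment 10.6), and had partners in K rep KO, KD and WT. EV-only peaks in EIPR1 and EXOC2, which act in vesicle traffic, had none in any other list. One in the aromatase gene CYP19A1 had partners in K rep KO and KD, and one in the flippase gene ATP9B in all 3.

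Protein-coding genes held 52.6% of K non-rep KO peaks and 56.5% of EV peaks. The share was lower among shared peaks, at 50.5% in K non-rep KO and 50.9% in EV, than among peaks of 1 list alone, at 55.5% for K non-rep KO and 59.6% for EV. To count by gene, a region was defined as the gene body with 2 kb on both sides. Of 19974 protein-coding genes, 11026 held a peak in K non-rep KO and 13642 in EV, and 14530 held one in either. Of these 14530 genes 67.8% had fewer peaks in K non-rep KO against 14% had more, with 888 marked in K non-rep KO alone and 3504 in EV alone. Because the lists differ in length, a relative ratio was used for genes: the ratio of peaks, K non-rep KO over EV, with 0.5 added to both numbers, divided by 0.608. A relative ratio of 1 means that the gene follows the ratio over all peaks. The ratio was read for the 2541 genes whose peaks in the pair summed to 10 or more. Of these, 197 had a relative ratio of 0.5 or less (7.75%) and 73 a relative ratio of 2 or more (2.87%). The 95% interval lay wholly below 1 for 28 genes (1.1%) and above 1 for 7 (0.275%). Shares this small can arise from counting error alone with 95% intervals over 2541 genes, so they single out no gene. For the other tested genes the interval included 1.

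**Figure D2:**
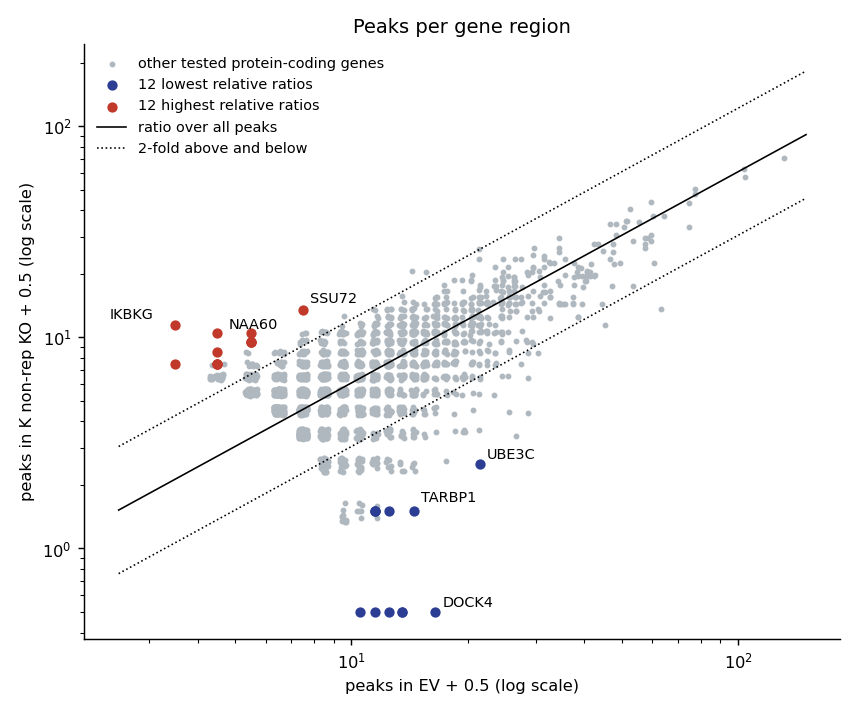
Peaks per gene region in K non-rep KO (y axis) and EV (x axis), both with 0.5 added and on log scales, for protein-coding genes whose peaks in the pair sum to 10 or more. Grey points are slightly displaced so that ties can be seen. The solid line is the ratio over all peaks, the dotted lines lie 2-fold above and below, blue points are the 12 lowest and red points the 12 highest relative ratios. DOCK4 (0 in K non-rep KO, 16 in EV) and IKBKG (11 in K non-rep KO, 3 in EV) mark the ends.

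The genes with the lowest relative ratios had few or none of the peaks seen in EV. DOCK4, which encodes a Rac and Rap exchange factor (chromosome 7, 111726110 to 112206399), had 0 peaks in K non-rep KO against 16 in EV. KD had 7 there, and K rep KO and WT 2 each, so EV was the highest of the 5 lists. HDLBP, an RNA-binding protein gene, and OGFOD3, an oxygenase domain gene, each held 0 peaks in K non-rep KO against 13 in EV. HDLBP had 7 peaks in K rep KO, 1 in KD and 0 in WT, while OGFOD3 had 3, 5 and 2 in that order. RAMP1, which encodes a partner of the calcitonin receptor-like receptor, held 0 in K non-rep KO and 12 in EV, with 4 in K rep KO, 7 in KD and 1 in WT. PRKCH, the gene of protein kinase C eta, held 0 in K non-rep KO and 11 in EV. MCC, a gene mutated in colorectal cancer, held 0 in K non-rep KO and 10 in EV. The other lists kept 1 to 5 peaks in PRKCH and 1 to 4 in MCC. None of the EV peaks in these 6 genes had a K non-rep KO partner, which follows almost wholly from the counts of 0.

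In 6 further genes 1 or 2 peaks were left. UBE3C, a ubiquitin ligase gene, held 2 peaks in K non-rep KO against 21 in EV, and 13 each in K rep KO and KD, but 1 in WT. This was a gene in which K non-rep KO stood with WT, and both other perturbed lines lay between. TARBP1, a tRNA methyltransferase gene, held 1 in K non-rep KO and 14 in EV, and RFX1, a transcription factor gene, 1 in K non-rep KO and 12 in EV. COPG2 encodes a coat protein of Golgi vesicles, CLUH a protein that binds messages for mitochondrial proteins, and TLK1 a kinase of chromatin assembly. These 3 held 1 peak in K non-rep KO and 11 in EV each. CLUH had 10 peaks in K rep KO, 4 in KD and 0 in WT. For COPG2, CLUH and TLK1 the interval of the relative ratio reached above 1 (to 1.03), and for the other 9 of the 12 lowest genes it did not. All 12 were picked by this ratio, and the 6 with 0 peaks in K non-rep KO passed the 10-peak cut through EV alone. These intervals are therefore no support for a difference. Among peaks with a −log10 q of 5 or more, DOCK4, HDLBP, OGFOD3, RAMP1, PRKCH and MCC lay at 0.159 (DOCK4) to 0.414 (MCC). COPG2 turned round to 1.24. Few peaks of these genes are left at that threshold, so the added 0.5 weighs heavily and no shift is read from these values.

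At the other end, IKBKG, the gene of the NEMO subunit that activates NF-κB signalling (chromosome X, 154541238 to 154565046), had 11 peaks in K non-rep KO against 3 in EV. Its relative ratio was 5.40 (95% interval 1.59 to 33.7), and K rep KO had 4 peaks, KD 5 and WT 1. IKBKG has a near-identical pseudogene copy nearby, so its reads are uncertain. NAA60, an N-terminal acetyltransferase gene, held 10 peaks in K non-rep KO against 4 in EV, with 8 in K rep KO. RAB35, a GTPase gene of endosome recycling, held 10 in K non-rep KO and 5 in EV. SSU72, a phosphatase gene of the RNA polymerase II tail, held 13 in K non-rep KO and 7 in EV, against 3 in K rep KO, 8 in KD and 3 in WT. These 4 had intervals above 1, which their choice by the highest ratios favours. Among peaks with a −log10 q of 5 or more IKBKG had a relative ratio of 1.24 and RAB35 of 1.48, and SSU72 turned round to 0.690. NAA60 lay at 2.90 there and at 2.51 with a fold enrichment of 4 or more. The remaining 8 genes of the 12 highest were CDC42EP4 (7 in K non-rep KO, 3 in EV), IPCEF1 (8 and 4 in that order), and EPHA6, XRCC3 and IP6K1 (9 and 5 each), then ARMC1, COPE and NSUN4 (7 and 4 each). Their intervals included 1, and COPE (0.414 at a −log10 q of 5 or more) and IPCEF1 (0.889 at a fold enrichment of 4 or more) turned round under a stricter threshold. Few peaks of the named genes are left at these thresholds, so the added 0.5 weighs heavily in such values. XRCC3 acts in DNA repair by recombination, EPHA6 is an ephrin receptor, and COPE, like COPG2 at the low end, is a subunit of the coat of Golgi vesicles.

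Genes with more peaks give narrower intervals. The 5 genes with the most peaks in K non-rep KO, named after their values were seen, had relative ratios of 0.882 to 1.07. MAD1L1, of the mitotic spindle checkpoint, held 70 peaks in K non-rep KO against 131 in EV, and RPTOR, of the mTOR complex, 62 in K non-rep KO and 103 in EV. GSE1 held 57 in K non-rep KO and 104 in EV, TBC1D22A 50 and 77, and PTPRN2 47 and 77 in the same order. TBCD, a tubulin folding gene also named after its values were seen, stood apart among such genes. It held 13 peaks in K non-rep KO against 63 in EV, a relative ratio of 0.35, with 13 in K rep KO, 22 in KD and 7 in WT. Of the 7 genes with intervals above 1, the other 3 were AGO2 (26 in K non-rep KO, 21 in EV), OSBPL2 (20 and 15 in that order) and ROBO2 (20 and 14), and these too were picked after their values were seen.

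The 13 gene lists were then compared, each by its summed peaks and by how many members had fewer or more. Their relative ratio is the ratio of summed peaks, with 0.5 added to both numbers, divided by that over all protein-coding genes, 0.568. The count of members is to be read against the 67.8% of genes with fewer and 14% with more. The KCNQ1OT1 domain and its neighbours in 11p15.5, the imprinted region of chromosome 11, had the lowest relative ratio, 0.609 (95% interval 0.423 to 0.850), with 46 peaks in K non-rep KO against 134 in EV. In this list KCNQ1OT1 lies within KCNQ1 and H19 within MRPL23. Their peaks are counted again in the larger gene, so this interval is too narrow. Clustered protocadherin genes lay at 1.27 (1.08 to 1.49), with 260 peaks in K non-rep KO against 361 in EV. Protocadherin genes are nested and share peaks, so their interval is too narrow. It includes 1 with lists of the same length (0.964 to 1.38), and the direction turns round to 0.854 among peaks with a −log10 q of 5 or more and 0.923 among peaks with a fold enrichment of 4 or more. For the other 11 lists the interval included 1. The interval of the 11p15.5 list reached above 1 with lists of the same length (0.759, 0.507 to 1.12) and among peaks with a fold enrichment of 4 or more (0.660, 0.398 to 1.04). Collagen genes had an interval below 1 at that fold enrichment (0.538 to 0.969). Among peaks with a −log10 q of 5 or more the interval of collagen genes was also below 1 (0.412 to 0.979), and that of germline genes above 1 (1.04 to 2.43). The 11p15.5 list lay at 0.142 there (0.0135 to 0.442), on only 2 peaks in K non-rep KO against 41 in EV.

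**Figure D3:**
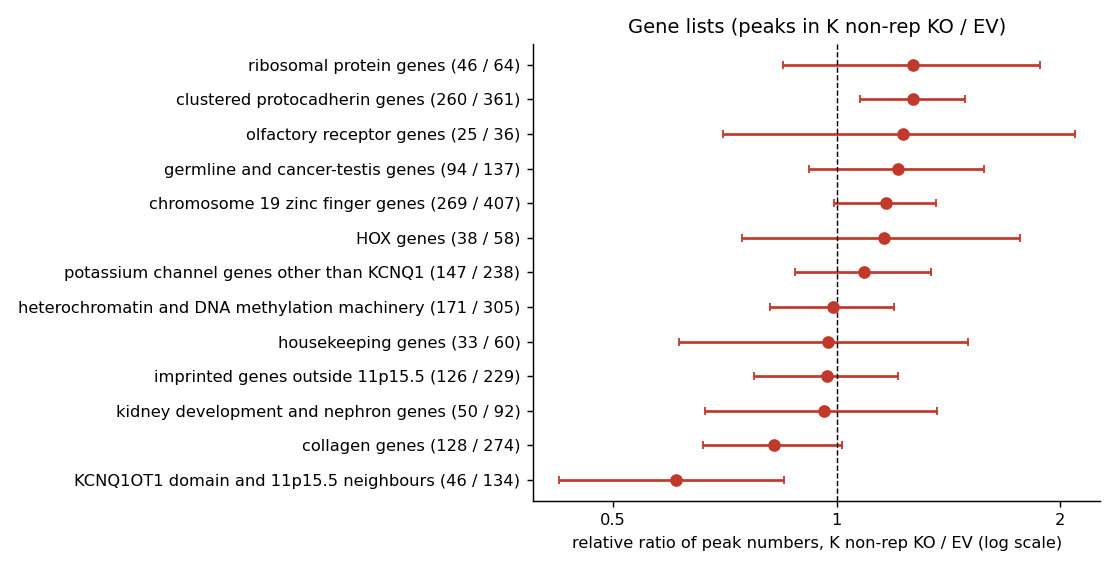
Relative ratio of summed peak numbers, K non-rep KO over EV (x axis, log scale), for 13 gene lists, with exact binomial 95% intervals. The numbers beside each list are its peaks in K non-rep KO against EV. The dashed line is the ratio over all protein-coding genes. The 11p15.5 genes lie lowest (0.609) and only their interval lies below 1, which it does not with lists of the same length (0.507 to 1.12) or at a fold enrichment of 4 or more (0.398 to 1.04).

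Within 11p15.5, 17 of the 21 members found in the gene table held a peak, of which 14 had fewer peaks in K non-rep KO, 2 had more and 1 had the same number. KCNQ1, the voltage-gated potassium channel gene within which KCNQ1OT1 lies, carried the largest part. It held 11 peaks in K non-rep KO against 45 in EV, a relative ratio of 0.416, and only 2 of its 45 EV peaks had a K non-rep KO partner. The other lists were closer to K non-rep KO than to EV there, with 9 in K rep KO, 14 in KD and 3 in WT. K rep KO was low along much of chromosome 11, with relative ratios to EV of 0.361 in the first 5 Mb and 0.360 from 115000001 to 120000000. WT is the shortest list. KCNQ1OT1 itself had 0 in K non-rep KO and 2 in EV. Beside KCNQ1, TRPM5, a taste cell channel gene, held 1 in K non-rep KO and 11 in EV, and CD81, a tetraspanin gene, 2 in K non-rep KO and 9 in EV. IGF2, the paternally expressed growth factor gene, held 0 in K non-rep KO and 6 in EV, and CTSD, which encodes a lysosomal protease, 0 in K non-rep KO and 4 in EV.

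Not all of the region leaned this way. LSP1, a leukocyte protein gene, was listed with 6 peaks in K non-rep KO against 5 in EV, and TNNT3, a troponin gene, with 3 in K non-rep KO and 7 in EV. MRPL23, a mitochondrial ribosomal protein gene whose listed span takes in H19, held 9 in K non-rep KO and 17 in EV. OSBPL5, an oxysterol-binding protein gene at the other end of the domain, held 7 in K non-rep KO and 12 in EV. These relative ratios were 0.893 for MRPL23 and 0.987 for OSBPL5, close to that of all peaks. H19, the maternally expressed non-coding RNA, held 1 in K non-rep KO and 3 in EV, which are also counted in MRPL23. CARS1 had 2 in K non-rep KO and 6 in EV. TH had 1 in K non-rep KO and 2 in EV, ASCL2 2 in both, and INS 1 in K non-rep KO and 0 in EV. TSSC4 held 0 in K non-rep KO and 2 in EV, and SYT8 0 in K non-rep KO and 1 in EV.

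Imprinted genes elsewhere followed the genome. Their relative ratio was 0.970 (95% interval 0.773 to 1.21), with 19 members fewer, 4 more and 11 the same of 34 with a peak. TRAPPC9, of a vesicle tethering complex, held 30 peaks in K non-rep KO against 59 in EV, and WDR27 held 20 in K non-rep KO and 28 in EV. ANO1, a chloride channel gene, held 9 in K non-rep KO and 28 in EV, and MAGI2, a scaffold gene, 8 in K non-rep KO and 11 in EV. Genes of heterochromatin and DNA methylation lay at 0.988, with 29 members fewer, 4 more and 5 the same. Among them KDM4B and EHMT1, a histone demethylase and a histone methyltransferase gene, held 28 and 23 peaks in K non-rep KO against 59 and 46 in EV. UHRF1, which brings the maintenance methyltransferase to replicating DNA, held 13 in K non-rep KO and 20 in EV, and DNMT3A, a de novo methyltransferase gene, 11 in K non-rep KO and 20 in EV. Kidney genes lay at 0.961 with 18 members fewer and 4 more, PKD1 having 10 peaks in K non-rep KO against 13 in EV, and PAX2 4 and 9 in that order. Housekeeping genes lay at 0.975 with 15 fewer and 4 more.

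Germline and cancer-testis genes lay at 1.21 (0.919 to 1.58), with 25 members fewer, 8 more and 7 the same. TEX14, of germ cell bridges, held 13 peaks in K non-rep KO against 20 in EV, MOV10L1, a helicase gene of the piRNA pathway, 11 in K non-rep KO and 12 in EV, and the meiotic recombinase gene DMC1 7 in both. Zinc finger genes of chromosome 19 lay at 1.16 (0.994 to 1.36), with 102 members fewer, 30 more and 39 the same. HOX genes lay at 1.16, olfactory receptor genes at 1.23 and ribosomal protein genes at 1.27, all with wide intervals. HOXB3 held 5 peaks in K non-rep KO against 6 in EV, OR2C1 5 in both, and RPS3 4 in both. Collagen genes lay at 0.824 (0.661 to 1.02), with 30 members fewer, 5 more and 4 the same. COL23A1 held 19 peaks in K non-rep KO against 42 in EV, COL18A1 19 and 39, and COL5A1 18 and 40 in the same order. Potassium channel genes other than KCNQ1 lay at 1.09 (0.879 to 1.34), with 40 members fewer, 12 more and 20 the same. In the γ protocadherin cluster PCDHGA1 and PCDHGA2 each held 13 in K non-rep KO and 15 in EV, PCDHGA3 12 and 14, and PCDHGA4 11 and 14 in that order.

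Chromosomes differed in how far they followed the overall ratio. The relative ratio of peak numbers lay below 1 with its whole interval on 5 of 23 chromosomes (21.7%) and above 1 on another 5 (21.7%). The lowest was chromosome 17, at 0.882 (0.846 to 0.920), with 3432 peaks in K non-rep KO against 6399 in EV, followed by chromosome 10 at 0.890 and chromosome 2 at 0.916. The highest was chromosome 18, at 1.29 (1.19 to 1.40), with 1059 peaks in K non-rep KO against 1346 in EV, followed by chromosome 22 at 1.15. Without windows of more than 100 peaks, the intervals of chromosome 17 (0.841 to 1.004), chromosome 18 (0.970 to 1.25) and chromosome 22 (0.973 to 1.34) included 1. Of 1560 windows of 1 Mb with at least 20 peaks, 38 had a relative ratio of 0.5 or less (2.44%) and 9 of 2 or more (0.577%). The lowest window, on chromosome 7 around DOCK4, held 3 peaks in K non-rep KO against 23 in EV. The next lay on chromosome 3 around the smooth muscle kinase gene MYLK (4 in K non-rep KO, 23 in EV), on chromosome 1 around HIVEP3 and on chromosome 10 around the Wnt transcription factor gene TCF7L2 (5 in K non-rep KO and 24 in EV each), and on chromosome 17 around PITPNM3 (8 in K non-rep KO, 36 in EV). The highest window, at the end of chromosome 11 around B3GAT1, held 31 in K non-rep KO and 22 in EV. The next 4 lay on chromosome 4 around CXCL10 and on chromosome 11 around NCAM1 (12 in K non-rep KO and 9 in EV each), on chromosome 4 around HNRNPD (25 in K non-rep KO, 19 in EV) and on chromosome 5 around MAP1B (13 in K non-rep KO, 10 in EV).

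**Figure D4:**
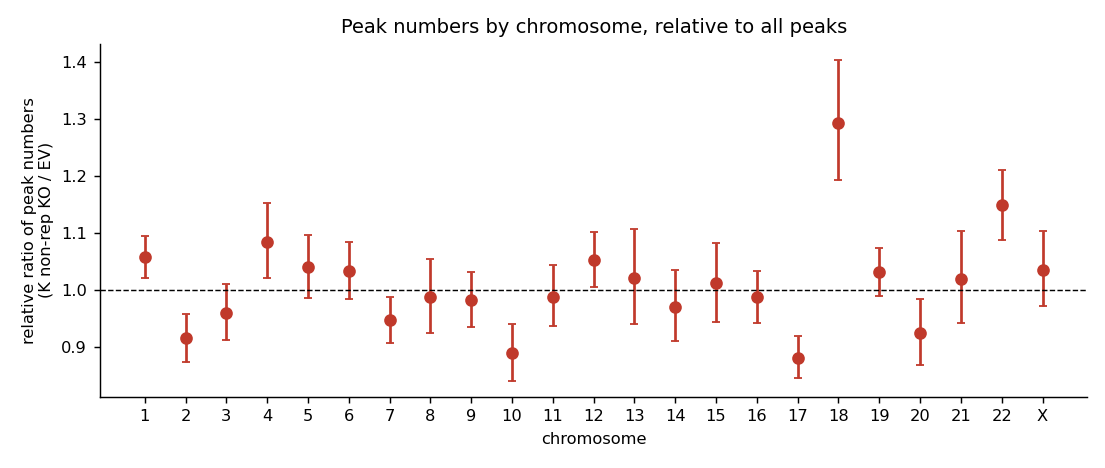
Relative ratio of peak numbers, K non-rep KO over EV (y axis), for each chromosome (x axis), with exact binomial 95% intervals. The dashed line at 1 is the ratio over all peaks. Chromosome 17 lies lowest (0.882) and chromosome 18 highest (1.29).

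The low value of chromosome 17 came from its first 22 Mb. This stretch was chosen after its values were seen. It held 687 peaks in K non-rep KO against 1842 in EV, a relative ratio of 0.613 (0.561 to 0.670), while the part of chromosome 17 from 28 Mb on lay at 0.974 (0.928 to 1.02). Of its 22 windows of 1 Mb, 21 had a relative ratio below 1. In the other lists, divided by each list's own ratio to EV, the same stretch lay at 1.01 in K rep KO, 0.932 in KD and 1.06 in WT. Across 511 segments of 5 Mb, 34 had an interval below 1 (6.65%) and 27 above 1 (5.28%). The upper bound was below 0.8 in 6 segments, and 3 of these 6 lay in the first 22 Mb of chromosome 17. The lowest upper bound of all belonged to the segment from 5000001 to 10000000, with 143 peaks in K non-rep KO against 460 in EV. Without this stretch chromosome 17 as a whole lay at 0.983 (0.937 to 1.03).

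Of 289 protein-coding genes with a peak in this stretch, 250 (86.5%) had fewer peaks in K non-rep KO, 8 had more and 31 the same. Over all genes with a peak 67.8% had fewer and 14% more. Because the stretch was chosen after its values were seen, these gene counts restate its low peak number and are no separate support. RAP1GAP2, a Rap1 GTPase-activating gene, held 22 peaks in K non-rep KO against 60 in EV. In the other lists it held 32 in K rep KO, 38 in KD and 23 in WT. NXN, a redox gene of Wnt signalling, held 17 in K non-rep KO and 53 in EV, with 31 in K rep KO, 31 in KD and 14 in WT. NTN1, the axon guidance gene netrin 1, held 4 in K non-rep KO and 28 in EV, against 14 in K rep KO, 7 in KD and 6 in WT. These K non-rep KO counts were at or near the lowest of the 5 lists, next to WT, the shortest list. DNAH2, a dynein gene, held 4 in K non-rep KO and 25 in EV, and SMG6, an endonuclease gene of nonsense-mediated decay, 8 in K non-rep KO and 28 in EV. Values of STX8 (14 in K non-rep KO, 39 in EV), ABR (14 and 37 in that order), RPA1 (9 and 24), RTN4RL1 (7 and 21) and GAS7 (5 and 20) leaned the same way. The stretch supplied 60 of the 2541 tested genes and 21 of the 197 with a relative ratio of 0.5 or less, CLUH among them.

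The background that the peak caller used moved with this result. In the first 22 Mb of chromosome 17, 48.9% of the solved K non-rep KO peaks sat at the lowest, genome-wide background, against 19.7% of EV peaks, 19.2% in K rep KO, 25.8% in KD and 21.3% in WT. On the other chromosomes the shares were 25.9% in K non-rep KO and 19.9% in EV, and from 28 Mb on they were 14.2% in K non-rep KO and 8.48% in EV. The median background in the first 22 Mb was 1.12 fragments in K non-rep KO and 1.79 in EV, against 1.31 in K non-rep KO and 1.94 in EV on other chromosomes. EV peaks of the stretch were shared less often with K non-rep KO, at 27.6% against 35.7% on other chromosomes. A lower local background and fewer peaks thus occurred together over the same stretch, and the part of the background in the lower number was not tested.

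**Figure D5:**
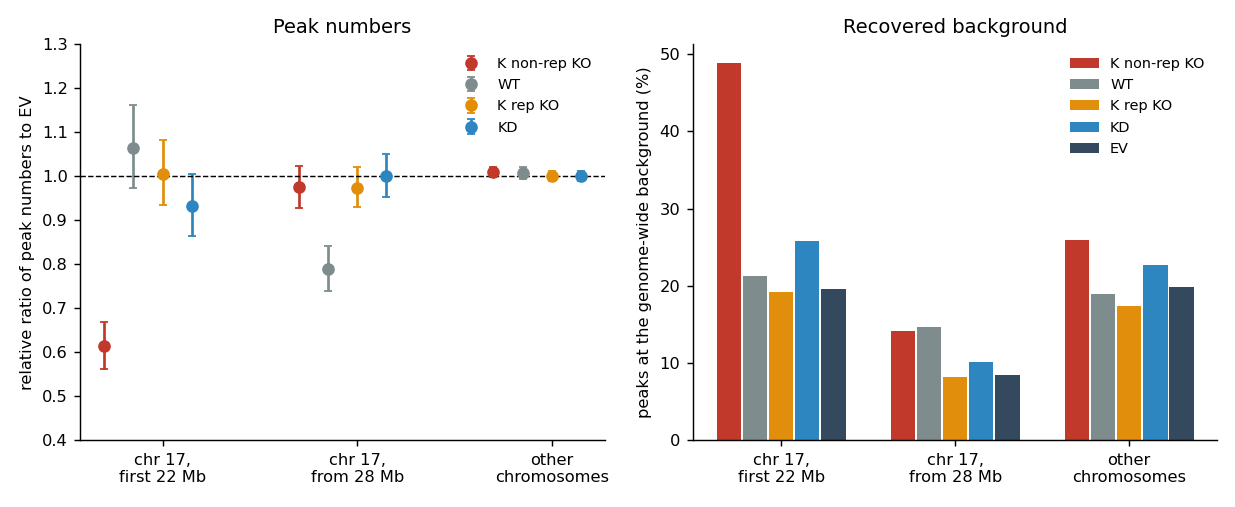
Left, relative ratio of peak numbers to EV (y axis) in 3 stretches of the genome for K non-rep KO, WT, K rep KO and KD, with exact binomial 95% intervals; the dashed line is 1. Right, percent of solved peaks at the genome-wide background for the same lists and EV. In the first 22 Mb of chromosome 17, K non-rep KO lies at 0.613 and 48.9%, apart from the other lists.

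Most segments above 1 were not particular to K non-rep KO. Of the 27 segments with an interval above 1, 22 also lay above 1 in K rep KO, KD and WT. The segment on chromosome 16 from 35000001 to 40000000 had 455 peaks in K non-rep KO against 415 in EV, with 337 in K rep KO, 488 in KD and 345 in WT. That on chromosome 11 from 50000001 to 55000000 held 273 in K non-rep KO and 262 in EV, with 288 in K rep KO, 337 in KD and 364 in WT. That on chromosome 18 from 15000001 to 20000000 held 541 in K non-rep KO and 559 in EV, with 617 in K rep KO, 488 in KD and 632 in WT. These segments lie at or beside centromeres. Of the 34 segments with an interval below 1, most likewise lay below 1 in K rep KO, KD and WT. On chromosome 10 from 75000001 to 80000000 the relative ratio to EV was 0.678 in K rep KO, 0.775 in KD and 0.305 in WT. On chromosome 17 from 15000001 to 20000000 it was above 1, at 1.03 in K rep KO, 1.05 in KD and 1.06 in WT. All these ratios share EV as their denominator.

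Promoters carried few peaks in either list, and fewer in K non-rep KO. Of 22132 RefSeq promoter windows of 15812 protein-coding genes, 464 (2.10%) held a K non-rep KO peak and 971 (4.39%) an EV peak. Both lists marked 281, K non-rep KO alone 183 and EV alone 690. For 45 of the 183 and 86 of the 690, as for the sequences above, the marking peak overlapped a peak of the other list outside the window. The K rep KO list marked 579, KD 597 and WT 156. Marked windows had a lower median CpG number than the rest: the median was 16 CpG sites per 300 bases where both lists had a peak, 14 for K non-rep KO alone and 15 for EV alone, against 21 for windows with neither. Windows with 10 to 19 CpG sites were marked most often, 5.89% in K non-rep KO and 11.5% in EV. The ratio of marked windows, K non-rep KO over EV, was 0.511 among windows with 10 to 19 CpG sites. It was 0.341 among windows with fewer than 5 CpG sites, where 15 windows in K non-rep KO and 44 in EV were marked. Promoters on chromosome 8 were not analysed here.

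Summits were also counted by distance from gene starts. From 500 bp before the start up to it there were 204 summits in K non-rep KO and 420 in EV, a ratio of 0.486 (0.409 to 0.576), and in the first 500 bp after it 278 in K non-rep KO and 563 in EV, a ratio of 0.494 (0.426 to 0.571). Both intervals lay below the ratio over all peaks. So did those from 1000 to 500 bp before the start (0.502, 0.440 to 0.572) and from 1000 to 1500 bp after it (0.529, 0.462 to 0.605). The bin farthest upstream, from 5000 to 4500 bp before the start, was low as well (0.487, 0.414 to 0.572, with 227 in K non-rep KO and 466 in EV). The interval from 3500 to 3000 bp before the start lay above that ratio (0.710, 0.609 to 0.827), and those of the remaining bins included it. Among the bins scanned, low ratios thus lay mostly within 1500 bp of a gene start. The intervals of all these low bins included 0.568, the ratio over protein-coding gene regions. Low ratios also occurred away from gene starts. In the last of 10 equal parts of gene bodies the interval lay below the ratio over all peaks (0.535, 0.509 to 0.562). In the third part it did not (0.617, 0.586 to 0.650). No focus at gene starts is therefore read from these bins. Between 2500 and 2000 bp before the start the ratio was 0.660 (0.575 to 0.757), with 349 summits in K non-rep KO and 529 in EV. In both lists the 500 bp before the start held fewer summits than the neighbouring bins.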

How the data were processed

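MeDIP libraries of HEK293T cells were compared as the authors' deposited narrowPeak lists, 1 for K non-rep KO and 1 for EV, with K rep KO, KD and WT beside them. The submitters' processing notes name Bowtie2, MACS2, deepTools and the GRCh38 build. Their versions and settings, the peak caller's control and any pooling were not given in the sources used. Each deposited peak has a fold enrichment (a ratio of the summit to the caller's background), a −log10 p, a −log10 q and a score, which the authors' lists give as 10 times the −log10 q. These are the authors' values and served to rank, filter or describe peaks. The fold and −log10 p were also solved for pileup, background and depth. These solved values, and peak numbers left by the same cut on −log10 q or fold, were compared between lists. The list named K-KD was taken as KD, and 1 further list (4 columns), whose name fits no sample, was left out. Inside both knockout lists the peaks are named with a prefix that differs from the list's own name, so the list's name decided its condition.

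Peaks off chromosomes 1 to 22 and X were dropped, 4.13% of the K non-rep KO list and 3.90% of the EV list. Coordinates are 1-based GRCh38. Gene positions and promoter sequences came from RefSeq tables of GRCh38.p14. Summit pileups were solved from fold, taken as (pileup + 1)/(background + 1), and −log10 p, taken as a Poisson upper tail (tolerance 0.001). This succeeded for 99.2% of K non-rep KO peaks and 100.0% of EV peaks. Relative depth is the genome-wide background over the length of the shortest peak. Intervals are Clopper-Pearson for ratios and Wilson for shares, at 95%.

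Named genes were the 12 lowest and 12 highest relative ratios among protein-coding genes with 10 or more peaks in the pair, up to 4 members of each gene list with the most peaks, and all 11p15.5 members with a peak. Named windows were the 5 at each end, and named peaks the 5 with the highest −log10 q in each class. Members, gene lists and rules were chosen with earlier results of these data known. The potassium channel list takes in accessory KCNIP genes. Overlap counting and gene ratios were tested on simulated data. Work was done in Python 3.11.15 with numpy 2.4.6, scipy 1.17.1, pandas 2.3.3 and matplotlib 3.10.9. Alternatives covered the authors' threshold, list length, overlap, dense windows, gene region and scaling.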

Additional observations from a re-analysis of the deposited data

How the results depend on the processing

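Values below are in the order K non-rep KO, then EV, where both are given. The ratio of peak numbers stayed below 1 under every filter on peaks other than equal list length, and fell to 0.483 among peaks with a −log10 q of 5 or more. There the covered length ratio was 0.556, the shares of shared peaks 62.0% and 29.8%, those of unshared peaks with a partner elsewhere 61.4% and 57.7%, and those within genes 48.3% and 55.0%. Higher windows numbered 15, lower genes 49 and higher genes 32. Marked promoters numbered 153 and 468, with 91 in both. The gene lists that moved were 11p15.5 (0.142), germline (1.60), collagen (0.652) and protocadherin (0.854, turned round). COPG2 (1.24), SSU72 (0.690) and COPE (0.414) turned round as well. These genes rest on few peaks there, where the added 0.5 weighs heavily. With a fold enrichment of 4 or more, the number ratio was 0.625 and the length ratio 0.644. Shared peaks made up 49.3% and 30.5%, partners elsewhere 52.1% and 47.4%, and peaks within genes 54.0% and 57.7%. Higher windows numbered 15 and lower genes 105. Protocadherin genes (0.923) turned round, as did IPCEF1 (0.889), the latter on few peaks. The cause was not tested. With the EV list limited to its 53396 strongest peaks, as many as K non-rep KO has, the number ratio is 1 by construction, the length ratio 0.872, shares of shared peaks 45.7% and 44.1%, partners elsewhere 46.3% and 45.2%, EV peaks within genes 56.2%, higher windows 21 and higher genes 46. Without windows over 100 peaks, the number ratio was 0.590, shared peaks 54.0% and 31.6%, partners elsewhere 32.1% and 33.0%, and peaks within genes 50.7% and 53.4%. Chromosomes off 1 numbered 6, lower genes 90, higher genes 44, and zinc finger genes lay at 0.971. All peaks of the 11p15.5 list lie in such windows, so it has no value without them, nor do genes left without peaks under a filter.

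Merging peaks within 500 bp gave a number ratio of 0.617 and a shared EV share of 36.1%. All sequences of the lists gave shared shares of 59.7% and 35.8%, an overlap of 50% of the shorter peak 55.6% and 33.2%, and a distance of up to 1 kb 67.7% and 43.2%. Counted as covered bases, 45 genes were higher. At least 20 peaks per gene left 31 lower and 5 higher genes. Promoter windows with 1 kb on both sides were marked in 2140 and 3831 cases, 1478 in both. The plain ratio, which is not divided by the ratio over all peaks, gave 821 lower and 3 higher genes. On that scale 11p15.5 lay at 0.346, imprinted genes elsewhere 0.551, heterochromatin 0.561, germline 0.687, kidney 0.546, housekeeping 0.554, HOX 0.658, protocadherin 0.721 (turned round), zinc finger 0.661, olfactory 0.699, ribosomal 0.721, collagen 0.468 and potassium channel genes 0.618. The first 22 Mb of chromosome 17, a stretch and alternatives added after seeing the data, lay between 0.604 and 0.656 under 5 filters. No paired analysis was possible because each condition has 1 list. Summits held a median of 10 fragments in K non-rep KO and 12 in EV, and no detection limit was measured.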

Other observations

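Along gene bodies of at least 5 kb, K non-rep KO had fewer summits than EV in each of 10 equal parts of the gene. The last part held 2467 summits in K non-rep KO and 4612 in EV, a ratio of 0.535 (95% interval 0.509 to 0.562). The third part held 2362 in K non-rep KO and 3827 in EV, a ratio of 0.617 (0.586 to 0.650). These were the lowest and the highest ratios of the 10 parts.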
